A study of Mus musculus with 18 samples.

Results

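Imprinted genes were followed across 18 mouse arrays: 34 genes known to be expressed from a single parental allele in at least some tissues were listed, and 30 of them were read by a probe set that carries no other gene symbol. Of the 30, 20 are labelled as expressed from the paternal and 10 from the maternal copy, against 22 and 12 as listed, and each had 1 probe set among the 19938 genes measured. Whether these labels hold in the cells used here was not tested. H19 and Kcnq1ot1 had no probe set under their symbols, and the probe sets of Snrpn and Gnas also carried another symbol, so these 4 were not analysed here. An imprint is DNA methylation laid down in the egg or the sperm at a control region and kept on that copy in the embryo's cells, where the zinc finger protein ZFP57 and its partner TRIM28 hold it in place. Many paternally expressed genes promote growth of the fetus and placenta, and many maternally expressed genes restrain it. In cultured pluripotent cells imprints are known to be unstable, which can silence a gene or turn on both of its copies. The arrays read the RNA of both copies together, so an array level does not show which copy was transcribed.

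The series set reprogrammed colon tumour cells (RTCs), which are tumour cells brought to a pluripotent state with induced pluripotent stem cell methods, beside embryonic stem cells (ESCs) and differentiated cells, and asked about Apc mutation and mutant beta-catenin in different cell types. The groups were 3 RTC arrays (RTC 1, 2 and 3), 2 arrays of RTC derivatives (#45 from RTC 1 and #9 from RTC 3), 1 array each of Apc Min/Min, Apc Min/+ and Apc +/+ ESCs, and 1 array each of S33 ESCs with and without doxycycline (dox). The differentiated cells were small intestinal organoids grown from #45 (1 array with 4-hydroxytamoxifen, 4-OHT, at 1 uM and 1 untreated), mouse embryonic fibroblasts (MEFs) of #45 (2 arrays with 4-OHT at 2 ug/ml and 2 untreated) and S33 MEFs (1 array with dox and 1 untreated). Treatment with 4-OHT lasted 2 days, and no dose or time is given for dox. Min is an allele of Apc, the scaffold of the complex that degrades beta-catenin, that encodes a truncated protein. Neither the alteration carried by the derivatives, nor the target of 4-OHT, nor the meaning of S33 is stated in the labels, which name both an ESC medium with LIF and a trophoblast stem cell medium for Min/Min ESCs without assigning either to the Min/Min array. Whether arrays of a group came from separate cultures is not stated, so the p-values measure the spread between these arrays, which may be technical. All levels are log2 intensities after quantile normalization of the 18 arrays together, with an array median of 7.93, and levels of different genes are not set against each other.

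The cell types carried their own markers. The mean level of 9 pluripotency markers was 6.81 to 7.05 in organoids and MEFs and 12.46 to 12.81 in the 10 arrays of RTCs, derivatives and ESCs, together called pluripotent cells here. Intestinal markers (12 genes) averaged 12.37 and 12.49 in the organoids and at most 7.37 elsewhere. Fibroblast markers (9 genes) averaged 7.27 and 7.55 in organoids, 11.80 to 12.59 in MEFs and 8.33 to 10.73 in pluripotent cells, where the ESCs of the Apc series (10.13 to 10.73) were above the other 7 arrays. Immune markers (6 genes) averaged 9.89 and 10.19 in the first pair of #45 MEF arrays, 8.05 and 8.31 in the second pair and 7.01 and 7.14 in S33 MEFs. In the deposited values 19.2% of probe sets had identical intensities in the 2 arrays of the second #45 MEF pair and 9.52 to 11.7% in derivative #9 and that pair, and 17.3% did in the Min/Min and +/+ ESC arrays, against at most 0.104% in any other pair of arrays. These are bulk measurements, in which fewer cells of a type and less RNA per cell cannot be told apart.

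The widest contrast among imprinted genes lay between the organoids and all other cells. In the plot of every gene in every array, the organoid columns were the lowest for most of the upper, paternally expressed block, MEFs were the highest for Igf2, Ndn and Grb10, and the 10 pluripotent arrays differed from each other most in Mest, Airn, Plagl1, Peg3, Phlda2, Meg3 and Nnat. The mean over the 20 paternally expressed genes was 7.37 and 7.32 in the 4-OHT and untreated organoids, between 9.40 and 10.29 in MEFs and between 8.99 and 9.73 in pluripotent cells. The mean over the 10 maternally expressed genes was 8.70 and 8.85 in the same organoids, between 9.22 and 9.90 in MEFs and between 9.33 and 9.59 in pluripotent cells. Rasgrf1, Rtl1 and Mkrn3 were at or below the array median in every array, with spans of 0.33, 0.71 and 1.42 on the log2 scale over the 18 arrays, and say little about expression.

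**Figure D1:**
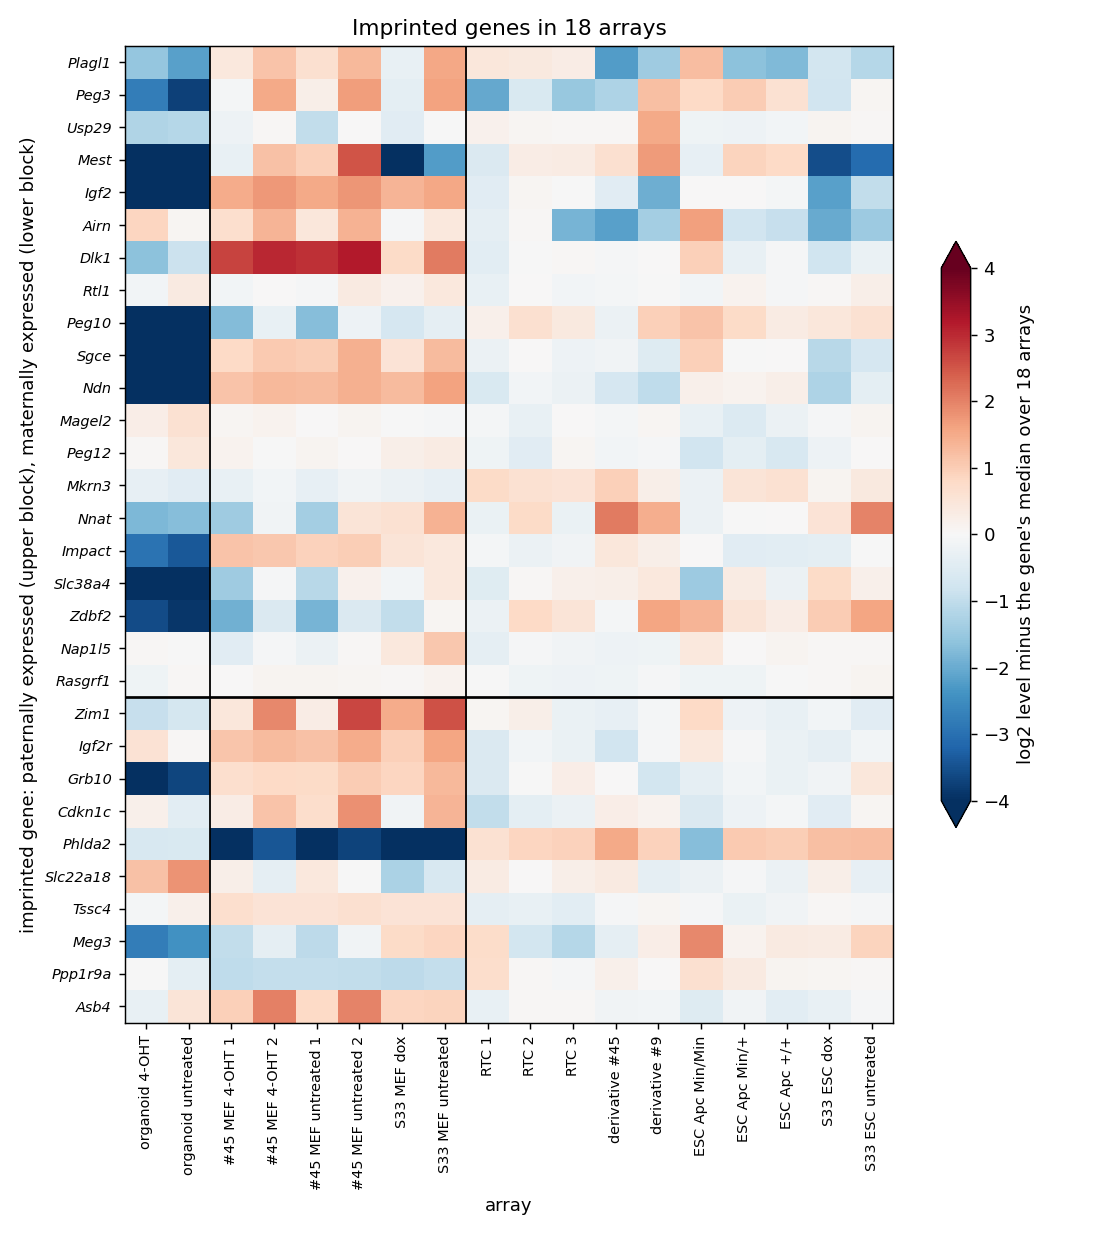
Level of 30 imprinted genes in 18 arrays, as the log2 level minus the gene's own median over all arrays (colour, limited to 4 on either side), with paternally expressed genes above the black line and maternally expressed genes below it. Vertical lines part organoids, MEFs and pluripotent cells: the organoid columns are dark blue for Igf2, Ndn, Sgce, Peg10, Slc38a4 and Grb10, and the MEF columns are dark blue for Phlda2.

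Plagl1 was higher in RTCs than in their derivatives and in the ESCs they were tested against. It encodes a DNA-binding zinc finger transcription factor that restrains cell growth and is expressed from the paternal copy. RTC 1, 2 and 3 had Plagl1 levels of 11.21, 11.15 and 11.07, and derivatives #45 and #9 levels of 8.54 and 9.34. The ESC levels were 12.01 in Apc Min/Min, 9.12 in Apc Min/+, 9.01 in Apc +/+, 10.03 in S33 with dox and 9.61 in S33 without dox. The 3 RTC arrays were close to each other, and they overlapped neither the derivatives nor any ESC array; Min/Min was the only pluripotent array above them. The 3 RTCs exceeded 3 ESCs (Apc Min/+, Apc +/+ and S33 without dox) by 1.89 ± 0.18 on the log2 scale (SE, 3.71-fold, adjusted p = 0.00187, limma) and the 2 derivatives by 2.20 ± 0.25 (4.59-fold, adjusted p = 0.0117). Without RTC 1 the second difference was 2.17 with an adjusted p of 0.0829.

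Peg3 went the other way in RTCs. PEG3 is a Kruppel-type zinc finger protein whose gene, paternally expressed, shares a bidirectional promoter with Usp29, a ubiquitin-specific protease gene. RTC 1, 2 and 3 had Peg3 levels of 8.80, 10.24 and 9.33. Apc Min/+, Apc +/+ and untreated S33 ESCs had levels of 11.85, 11.44 and 10.91. The groups did not overlap, and Peg3 was 1.94 ± 0.38 lower in RTCs (3.84-fold, adjusted p = 0.0275). Leaving out single arrays removed this call 4 times of 6: the difference was -1.61 without RTC 1 (adjusted p = 0.0665), -1.88 without RTC 3 (0.105), -1.92 without Apc +/+ (0.0830) and -1.72 without Apc Min/+ (0.104). The derivatives spanned the gap, with 9.60 in #45 and 12.05 in #9. Apc Min/Min ESCs were at 11.64 and S33 ESCs with dox at 10.08.

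These were the only calls among the 22 imprinted genes that entered the comparison of RTCs with ESCs, 1 of 22 higher and 1 lower, where 6.69% of 12080 genes were called (3.21% higher and 3.48% lower). Of the other 20, Slc22a18, a membrane transporter gene, had the smallest p (0.39 ± 0.14, adjusted p = 0.152). Meg3, the maternally expressed long non-coding RNA of the Dlk1 region, was at 10.34 in RTC 1 but lower in RTC 2 and 3 (8.86 and 8.46). Apc Min/+, Apc +/+ and untreated S33 ESCs had Meg3 levels of 9.75, 9.97 and 10.50. With RTC 1 left out its difference was -1.41 ± 0.25 (adjusted p = 0.0359), and with all arrays it was -0.85 ± 0.46 (adjusted p = 0.314). The median difference over the 22 was -0.15, against -0.03 over all genes tested. Beside these differences, immune markers averaged 8.74 to 9.66 in RTCs and 7.90 to 8.07 in the 3 ESCs (3 of 5 tested were called higher), and fibroblast markers averaged 8.80 to 9.58 in RTCs and 8.87 to 10.20 in the ESCs (0 of 9 called by limma, 1 with an unadjusted p under 0.05). Neural markers averaged 7.49 to 7.60 in RTCs and 8.44 to 8.70 in the ESCs (3 of 6 called lower), trophoblast markers 8.21 to 8.58 in RTCs and 8.38 to 9.27 in the ESCs (2 of 6 called lower), and primitive endoderm markers 7.35 to 8.71 in RTCs and 7.39 to 7.67 in the ESCs (0 of 5 called by limma, 1 with an unadjusted p under 0.05). Their part in the differences was not tested.

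Between RTCs and derivatives Plagl1 was the single call among 23 imprinted genes, where 1.6% of 11940 genes were called (0.838% higher and 0.762% lower). Blocking on the line of origin (#45 paired with RTC 1, #9 with RTC 3) gave 4 calls, but that fit has 1 residual degree of freedom per gene and RTC 2, which has no derivative, adds nothing to it. Besides Plagl1 (2.19) these were Nnat, which encodes the membrane protein neuronatin, Mest, which encodes an alpha/beta hydrolase fold protein of mesoderm, and Peg3. Nnat was at 8.81, 9.85 and 8.83 in RTC 1, 2 and 3 and at 11.16 and 10.53 in #45 and #9, so the groups did not overlap. Its difference was -1.68 ± 0.36 without the block (adjusted p = 0.0754) and -2.02 ± 0.29 with it (adjusted p = 0.00215). Neural markers averaged 7.49 to 7.60 in RTCs and 8.90 and 8.72 in #45 and #9 (3 of 6 called lower), and their part in this difference was not tested. Mest was at 10.03, 10.90 and 10.91 in the RTCs, all below the 11.23 and 12.29 in #45 and #9. Its difference was -1.15 ± 0.38 (adjusted p = 0.242), or -1.29 ± 0.27 with the block (adjusted p = 0.0258). Peg3 differed by -1.37 ± 0.70 (adjusted p = 0.442), or by -1.76 ± 0.38 with the block (adjusted p = 0.0265). It was at 8.80 and 9.60 in RTC 1 and #45, and at 9.33 and 12.05 in RTC 3 and #9. The SE with the block borrows from the spread of all genes in limma and does not fully reflect how unlike these 2 pairs were. Without derivative #45, whose loss leaves #9 alone in its arm and assumed to vary like the RTCs, Igf2 (1.84) and Usp29 (-1.43) were called too.

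**Figure D2:**
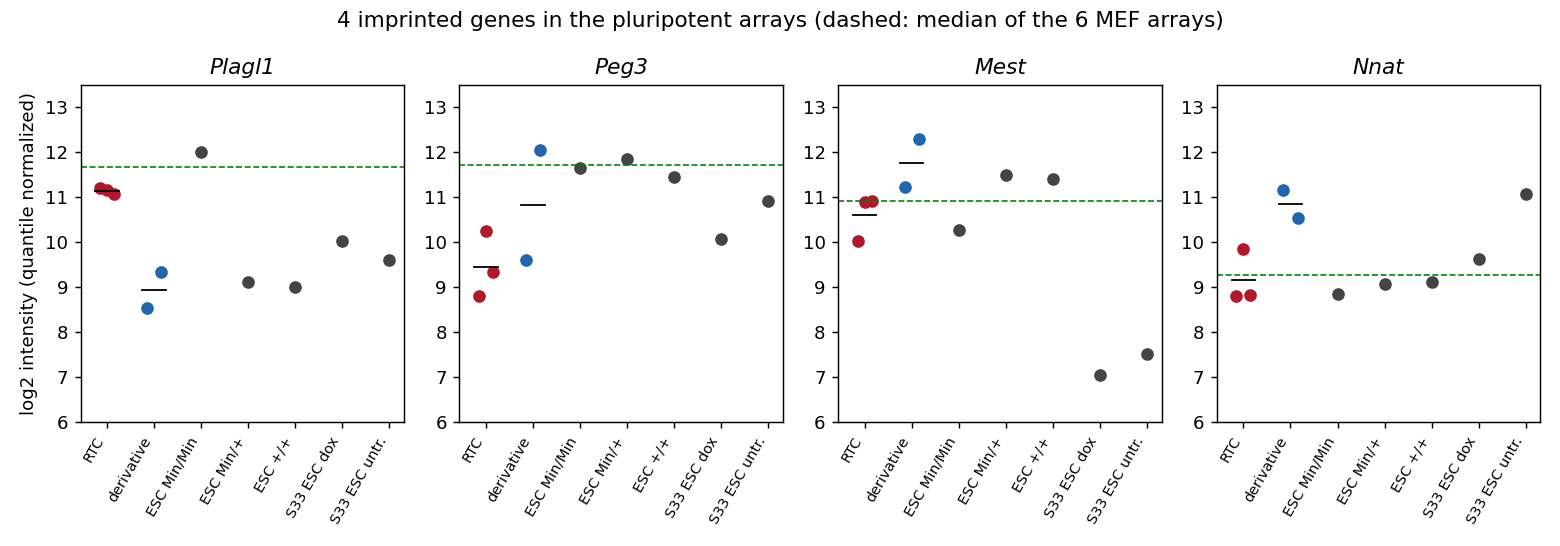
Log2 level of Plagl1, Peg3, Mest and Nnat in each pluripotent array (1 point each; short bars are the means of the 3 RTC and of the 2 derivative arrays; the dashed line is the median of the 6 MEF arrays). RTCs lie above the derivatives for Plagl1 and below them for Nnat, and both S33 ESC arrays lie far below the others for Mest.

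Derivatives and the same 3 ESCs showed no call, among 23 imprinted genes or among all 11941 genes tested with limma (0%), while 1012 genes (8.48%) had an unadjusted p under 0.05. Ndn and Impact were among those 1012 genes. Ndn, a MAGE family gene expressed in neurons, was at 9.99 and 9.66 in #45 and #9 and between 10.29 and 10.91 in the ESCs (-0.84 ± 0.24, adjusted p = 0.490). Impact, whose product regulates translation under amino acid stress, was at 12.21 and 11.98 in #45 and #9 and between 11.30 and 11.74 in the ESCs (0.64 ± 0.21, adjusted p = 0.518).

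The promoters of the genes that set the pluripotent lines apart are shown because each lies at or near a germline imprint: the Plagl1 and Mest promoters and the stretch between the starts of Peg3 and Usp29. The sequences are from RefSeq on build GRCm38.p6. Plagl1 (chr10:13090582-13090831, plus strand) and Mest (chr6:30737800-30738049, plus strand, before 1 of 3 RefSeq starts) are the 250 bases before the start, and Peg3-Usp29 (chr7:6730463-6730558, read on the plus strand) is the 96 bases between the outermost starts of these divergent genes. Capitals mark TGCCGC, the hexamer that ZFP57 binds when it is methylated, or its reverse complement GCGGCA; both strands were searched.
Plagl1: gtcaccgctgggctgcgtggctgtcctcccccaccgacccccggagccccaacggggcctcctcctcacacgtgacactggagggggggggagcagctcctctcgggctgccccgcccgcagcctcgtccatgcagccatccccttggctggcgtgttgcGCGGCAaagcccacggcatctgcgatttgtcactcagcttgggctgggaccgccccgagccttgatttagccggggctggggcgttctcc
Mest: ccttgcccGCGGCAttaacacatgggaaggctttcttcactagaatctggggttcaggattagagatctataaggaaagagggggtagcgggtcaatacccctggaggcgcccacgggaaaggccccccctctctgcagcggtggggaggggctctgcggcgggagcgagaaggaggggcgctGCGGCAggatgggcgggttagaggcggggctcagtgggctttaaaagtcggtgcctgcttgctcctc
Peg3-Usp29: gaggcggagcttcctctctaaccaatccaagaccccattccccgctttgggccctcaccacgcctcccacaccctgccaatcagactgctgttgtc
The hexamer occurred 1 time before Plagl1, 2 times before Mest and 0 times between Peg3 and Usp29, against 8.68% of 32851 promoters with a match in 250 bases and 4.03% in 96 bases. The windows held 19, 14 and 3 CpG, with a median over all promoters of 6 in 250 bases and 3 in 96. A match describes these letters only, and methylation was not measured.

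Apc Min/Min ESCs stood apart from Apc +/+ ESCs in imprinted genes, with 1 array each and hence no test. Of the 22 that entered, 8 were at least 2-fold apart, 5 higher and 3 lower, where 10.3% of 11390 genes were that far apart (4.6% higher and 5.65% lower). The higher ones were Plagl1 by 3.00, Airn by 2.56, Meg3 by 1.56, Zim1 by 1.08 and Zdbf2 by 1.06 on the log2 scale, and the lower ones were Phlda2 by -2.71, Slc38a4 by -1.23 and Mest by -1.13. Phlda2, which encodes a pleckstrin homology protein that limits placental growth, was at 10.34 in Min/Min ESCs and between 12.67 and 13.57 in the other 9 pluripotent arrays. Airn, the non-coding RNA that silences the paternal copy of Igf2r, was at 10.87 in Min/Min ESCs and between 7.06 and 9.27 in the other 9. The Min/Min array also had the highest primitive endoderm marker mean of the pluripotent arrays (9.69, against 7.35 to 8.71; Gata4 was at 11.60, against 8.07 in Apc +/+ ESCs) and the highest fibroblast marker mean (10.73). Its trophoblast marker mean was 8.10, against 9.27 in Apc +/+ ESCs (3 of 6 at least 2-fold lower, 0 higher), and its neural marker mean was 7.44, against 8.44 (3 of 5 lower, 0 higher). Their part in these differences was not tested, and genotype and any difference in medium cannot be told apart. Apc Min/+ and Apc +/+ ESCs, 1 array each, differed 2-fold in 0 of 21 imprinted genes and in 0.107% of 11244 genes (0.0711% higher and 0.0356% lower).

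Across cell types most imprinted genes changed level, as did most genes. In the 3 untreated MEF arrays against 5 pluripotent arrays (the 2 derivatives, Apc Min/+, Apc +/+ and untreated S33 ESCs), 13 of 26 imprinted genes were higher and 4 lower, where 61.9% of 12851 genes were called (32% higher and 30% lower). These were 7 higher and 2 lower of 16 paternally expressed, and 6 higher and 2 lower of 10 maternally expressed genes. Of the 3 MEF arrays 2 were from #45, and both #45 and S33 cells were in both arms. The fit took no account of the line, so its SEs and p-values do not measure the spread between lines. In the 2 organoid arrays against the 4 #45 MEF arrays, with 4-OHT as a covariate, 17 of 25 were lower and 4 higher, where 64.6% of 12995 genes were called (32.2% lower and 32.4% higher). On the values as deposited, where organoids were 0.49 lower than MEFs in the median of all genes, the split was 20 lower and 2 higher. The 4 #45 MEF arrays entered this fit as separate arrays, although the 2 arrays of a pair deviate together (correlation 0.83). The SEs and p-values of organoids against #45 MEFs may therefore be too small. The filter keeps a gene through the cells where it is high, so these counts describe the genes that entered. With no filter 15 of 30 were lower and 3 higher in organoids (background 23.1% and 24.1%), and 13 of 30 were higher and 5 lower in MEFs (21.6% and 20%).

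Overlap between single arrays was counted for the 27 imprinted genes above the array median in at least 1 array. Both organoid arrays lay below all 16 other arrays for 14 of the 27 (51.9%), 11 of 17 paternally and 3 of 10 maternally expressed, where 12.9% of 13937 genes did so. Of the 14, Usp29 entered through derivative #9 alone, and Zim1 was above the array median in 5 arrays. These 2 genes were under that median in both organoid arrays and in most others, and the order of such levels cannot be told from background. Both lay above all 6 MEF arrays for Magel2, Phlda2, Ppp1r9a and Slc22a18 (4 of 27, background 32.2%). All 6 MEF arrays lay above all 10 pluripotent arrays for Asb4, Grb10, Igf2, Igf2r, Ndn and Tssc4 (6 of 27, background 21.9%) and below them for Phlda2 and Ppp1r9a (2 of 27, background 19.7%). Organoids and MEFs share the source line #45, but culture medium, Matrigel and cell type changed together and cannot be told apart. In the sentences that follow, levels cover all 2 organoid, 6 MEF and 10 pluripotent arrays, and tests use the arrays named above. The deposited values carry no detection calls, so a level under the array median of 7.93 cannot be told from background, and log2 differences that rest on such a level are given without a fold.

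Igf2, the fetal growth factor ligand, was at 7.97 and 8.16 in the 4-OHT and untreated organoids. It was between 13.69 and 14.11 in MEFs (median 13.88) and between 10.17 and 12.43 in pluripotent cells (median 12.08). The 3 cell types did not overlap, with organoids lowest and MEFs highest. Igf2 fell by 5.89 ± 0.13 in organoids against #45 MEFs (59.5-fold lower, adjusted p = 2.66e-06) and rose by 2.31 ± 0.40 in MEFs against pluripotent cells (4.94-fold, adjusted p = 0.000889). In organoids Igf2 lay just above the array median of 7.93, so the size of the 59.5-fold difference is uncertain. Its clearance receptor Igf2r, maternally expressed, was at 11.54 and 11.01 in organoids, between 11.93 and 12.56 in MEFs and between 10.20 and 11.40 in pluripotent cells. Igf2r rose by 1.66 ± 0.19 in MEFs (adjusted p = 8.51e-05) and fell by 0.95 ± 0.19 in organoids (adjusted p = 0.00698), or by 0.62 without the untreated organoid (adjusted p = 0.0533). Airn was at 10.09 and 9.30 in organoids, between 9.20 and 10.64 in MEFs and between 7.06 and 10.87 in pluripotent cells. Airn rose by 2.10 ± 0.34 in MEFs (adjusted p = 0.000593), whereas organoids differed from MEFs by -0.51 ± 0.35 without passing the test. Airn and Igf2r overlap over 28396 bases on opposite strands of chromosome 17, and the strand that each probe set reads is unknown here, so their signals may not be separate. Grb10, which encodes an adaptor that dampens insulin and IGF1 receptor signalling, was at 7.24 and 7.95 in organoids, between 12.32 and 12.93 in MEFs and between 10.90 and 12.09 in pluripotent cells. Grb10 fell by 4.85 ± 0.16 in organoids (adjusted p = 9.14e-06) and rose by 1.15 ± 0.25 in MEFs (adjusted p = 0.00291).

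In the Kcnq1 region of chromosome 7, whose measured members are all maternally expressed, the genes did not move together. Phlda2 was at 11.40 and 11.44 in the 4-OHT and untreated organoids, between 7.70 and 8.62 in MEFs (median 7.87) and between 10.34 and 13.57 in pluripotent cells (median 13.01). MEFs were below every other array. Phlda2 fell by 5.21 ± 0.18 in MEFs against pluripotent cells (adjusted p = 1.28e-07) and was 3.29 ± 0.29 higher in organoids than in #45 MEFs (adjusted p = 0.000302). Cdkn1c, which encodes a cyclin-dependent kinase inhibitor, was at 9.28 and 8.67 in organoids, between 8.95 and 10.92 in MEFs and between 8.09 and 9.35 in pluripotent cells. Cdkn1c rose by 1.26 ± 0.23 in MEFs (adjusted p = 0.00123), and organoids differed from MEFs by -1.10 ± 0.45 without passing the test. Slc22a18 was at 10.53 and 11.14 in organoids, between 8.08 and 9.78 in MEFs and between 9.01 and 9.72 in pluripotent cells. Organoids were above every other array, and the difference from #45 MEFs was 1.41 ± 0.22 (adjusted p = 0.00268). Tssc4 varied least of the 4, with 9.11 and 9.37 in organoids, between 9.72 and 9.84 in MEFs and between 8.75 and 9.27 in pluripotent cells. The Tssc4 difference was 0.67 ± 0.12 in MEFs against pluripotent cells (adjusted p = 0.00101) and -0.54 ± 0.11 in organoids against MEFs (adjusted p = 0.00707). Among further imprinted genes of this region, chosen with earlier results known, the potassium channel gene Kcnq1 was 5.09 ± 0.09 higher in organoids than in #45 MEFs (adjusted p = 1.89e-06) and the transcription factor gene Ascl2, an intestinal stem cell regulator, 3.58 ± 0.22 higher (adjusted p = 7.23e-05). Osbpl5, which encodes an oxysterol-binding protein family member, fell in organoids (-2.41 ± 0.13, adjusted p = 4.57e-05), as did the tetraspanin gene Cd81 (-0.47 ± 0.10, adjusted p = 0.008).

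Dlk1, the delta-like transmembrane ligand of the chromosome 12 region, was at 8.58 and 9.37 in organoids. It was between 12.95 and 13.41 in the 4 #45 MEF arrays, at 11.0 and 12.30 in S33 MEFs with and without dox, and between 9.45 and 11.19 in pluripotent cells. Organoids were below every other array, and #45 MEFs above every other array. Dlk1 fell by 4.22 ± 0.18 in organoids against #45 MEFs (18.6-fold, adjusted p = 2.22e-05) and rose by 2.85 ± 0.23 in MEFs against pluripotent cells (7.20-fold, adjusted p = 1.18e-05). Meg3, from the other parental copy of the same region, was at 6.84 and 7.17 in organoids, between 8.56 and 10.45 in MEFs and between 8.46 and 11.53 in pluripotent cells. It fell by 1.97 ± 0.30 in organoids (adjusted p = 0.00262) and did not pass the test in MEFs against pluripotent cells (-0.37 ± 0.40).

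Peg10 and Sgce start next to each other on chromosome 6 and are both paternally expressed. Peg10, a retrotransposon-derived gene needed by the placenta, was at 7.29 and 7.13 in organoids, between 10.62 and 12.15 in MEFs and between 12.11 and 13.49 in pluripotent cells. Sgce, which encodes epsilon-sarcoglycan, was at 6.53 and 6.52 in organoids, between 11.06 and 11.95 in MEFs and between 9.40 and 11.47 in pluripotent cells. Both were at or below the array median in organoids only. In organoids against #45 MEFs, Peg10 fell by 4.16 ± 0.55 (adjusted p = 0.00145) and Sgce by 5.07 ± 0.17 (adjusted p = 9.03e-06). Against pluripotent cells the pair split: in MEFs Sgce rose by 1.49 ± 0.20 (adjusted p = 0.000173) and Peg10 fell by 1.24 ± 0.37 (adjusted p = 0.0156), a call lost without the first untreated #45 MEF array (-0.77, adjusted p = 0.0561). Of the maternally expressed genes near them, Ppp1r9a, which encodes the actin-binding protein neurabin, was at 8.09 and 7.71 in organoids, between 7.04 and 7.13 in MEFs and between 8.05 and 8.80 in pluripotent cells. Ppp1r9a fell by 1.12 ± 0.12 in MEFs (adjusted p = 5.41e-05) and was 0.78 ± 0.12 higher in organoids than in MEFs (adjusted p = 0.00235), though on the values as deposited this was 0.26 (adjusted p = 0.111) and without the 4-OHT organoid it did not enter. Asb4, an ankyrin repeat and SOCS box gene, was at 6.47 and 7.26 in organoids, between 7.57 and 8.76 in MEFs and between 6.25 and 6.82 in pluripotent cells. It rose by 1.41 ± 0.25 in MEFs (adjusted p = 0.001; it did not enter without the second untreated #45 MEF array), and its fall of 1.33 ± 0.46 in organoids (adjusted p = 0.0474) did not survive leaving out single arrays in 5 of 6 cases, with adjusted p of 0.0506 to 0.314.

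In the region of chromosome 7 that holds Snrpn, Ndn had the most negative log2 difference in organoids of the 25 imprinted genes tested. Ndn was at 5.49 and 6.48 in the 4-OHT and untreated organoids, between 11.80 and 12.27 in MEFs and between 9.43 and 10.91 in pluripotent cells. The 3 cell types did not overlap. Ndn fell by 5.97 ± 0.21 in organoids (adjusted p = 1.06e-05) and rose by 1.78 ± 0.28 in MEFs (adjusted p = 0.000461). Its MAGE family neighbour Magel2 spanned 1.15 over all 18 arrays and was above the array median in 1 of them. Magel2 was 0.37 ± 0.12 higher in organoids than in MEFs (adjusted p = 0.0407), but -0.22 on the values as deposited, and the call was lost 4 times of 6 on leaving out an array (adjusted p 0.0630 to 0.0975); without the untreated organoid it did not enter. Peg12, a Frat family gene, stayed between 7.54 and 8.75 and was called in no comparison as designed, but with all 6 MEF arrays against all 10 pluripotent arrays it was called higher in MEFs (0.41 ± 0.12, adjusted p = 0.00727).

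In the Peg3 region, the 2 paternally expressed genes and the maternally expressed zinc finger gene Zim1 differed in where they were high. Peg3 was at 8.07 and 7.10 in organoids, between 10.45 and 12.52 in MEFs (median 11.72) and between 8.80 and 12.05 in pluripotent cells. It fell by 4.10 ± 0.62 in organoids (adjusted p = 0.00253) and differed between MEFs and pluripotent cells by 0.85 ± 0.55, which did not pass the test. Zim1 was at 6.52 and 6.74 in organoids, between 7.75 and 10.11 in MEFs and between 6.99 and 8.24 in pluripotent cells. Zim1 rose by 2.10 ± 0.47 in MEFs (adjusted p = 0.00348), and its fall of 2.15 ± 0.74 in organoids (adjusted p = 0.0459) was lost without either organoid array (adjusted p = 0.211 and 0.189) and without the second 4-OHT MEF array (0.0917). Usp29 stayed at or below 6.82 in 17 arrays and was at 8.17 in derivative #9, the array in which Peg3 was highest among pluripotent cells.

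Plagl1, described above for RTCs, was at 9.23 and 8.59 in organoids and between 10.46 and 12.32 in MEFs (median 11.67), above all 5 pluripotent arrays of the test. Plagl1 rose by 2.81 ± 0.27 in MEFs (6.99-fold, adjusted p = 2.80e-05) and fell by 2.73 ± 0.32 in organoids against #45 MEFs (6.65-fold, adjusted p = 0.000882). Mest was at 6.51 and 6.39 in the 4-OHT and untreated organoids. In MEFs it was at 10.29 and 11.77 with 4-OHT and 11.55 and 13.12 without it, and at 6.26 and 8.37 in S33 MEFs with and without dox. In S33 ESCs with and without dox it was at 7.05 and 7.52, and in the other 8 pluripotent arrays between 10.03 and 12.29. S33 cells were lower than the other cells of their type in both cell types, a comparison with no replicate array per condition. Mest fell by 5.23 ± 0.65 in organoids against #45 MEFs (adjusted p = 0.00112) and its difference between MEFs and pluripotent cells (0.23 ± 1.22) did not pass the test.

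Impact, Slc38a4 and Zdbf2 were lower in both organoid arrays than in any other array. Impact was at 8.81 and 8.36 in organoids, between 12.17 and 12.89 in MEFs and between 11.30 and 12.21 in pluripotent cells. It fell by 4.19 ± 0.11 in organoids (adjusted p = 3.73e-06) and rose by 0.81 ± 0.24 in MEFs (adjusted p = 0.0151), a call lost without either untreated #45 MEF array (0.73 and 0.70, adjusted p = 0.0573 and 0.0631). Slc38a4, an amino acid transporter gene of liver and placenta, was at 7.39 and 6.52 in organoids, between 10.62 and 12.47 in MEFs and between 10.59 and 12.80 in pluripotent cells. Slc38a4 fell by 4.48 ± 0.55 in organoids (adjusted p = 0.00111). Zdbf2, a zinc finger gene, was at 6.20 and 5.88 in organoids, between 7.85 and 9.86 in MEFs and between 9.55 and 11.36 in pluripotent cells. Zdbf2 fell by 2.51 ± 0.50 in organoids against MEFs (adjusted p = 0.00689; 0.0750 without the untreated organoid) and by 1.56 ± 0.50 in MEFs against pluripotent cells (adjusted p = 0.0221; -1.03 and 0.0978 without the first untreated #45 MEF array). Nnat was at 7.30 and 7.37 in organoids, between 7.67 and 10.46 in MEFs and between 8.81 and 11.16 in pluripotent cells, and was called in neither comparison. Nap1l5, a nucleosome assembly protein-like gene, was above the array median in 1 array (8.0 in untreated S33 MEFs) and was not called.

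**Figure D3:**
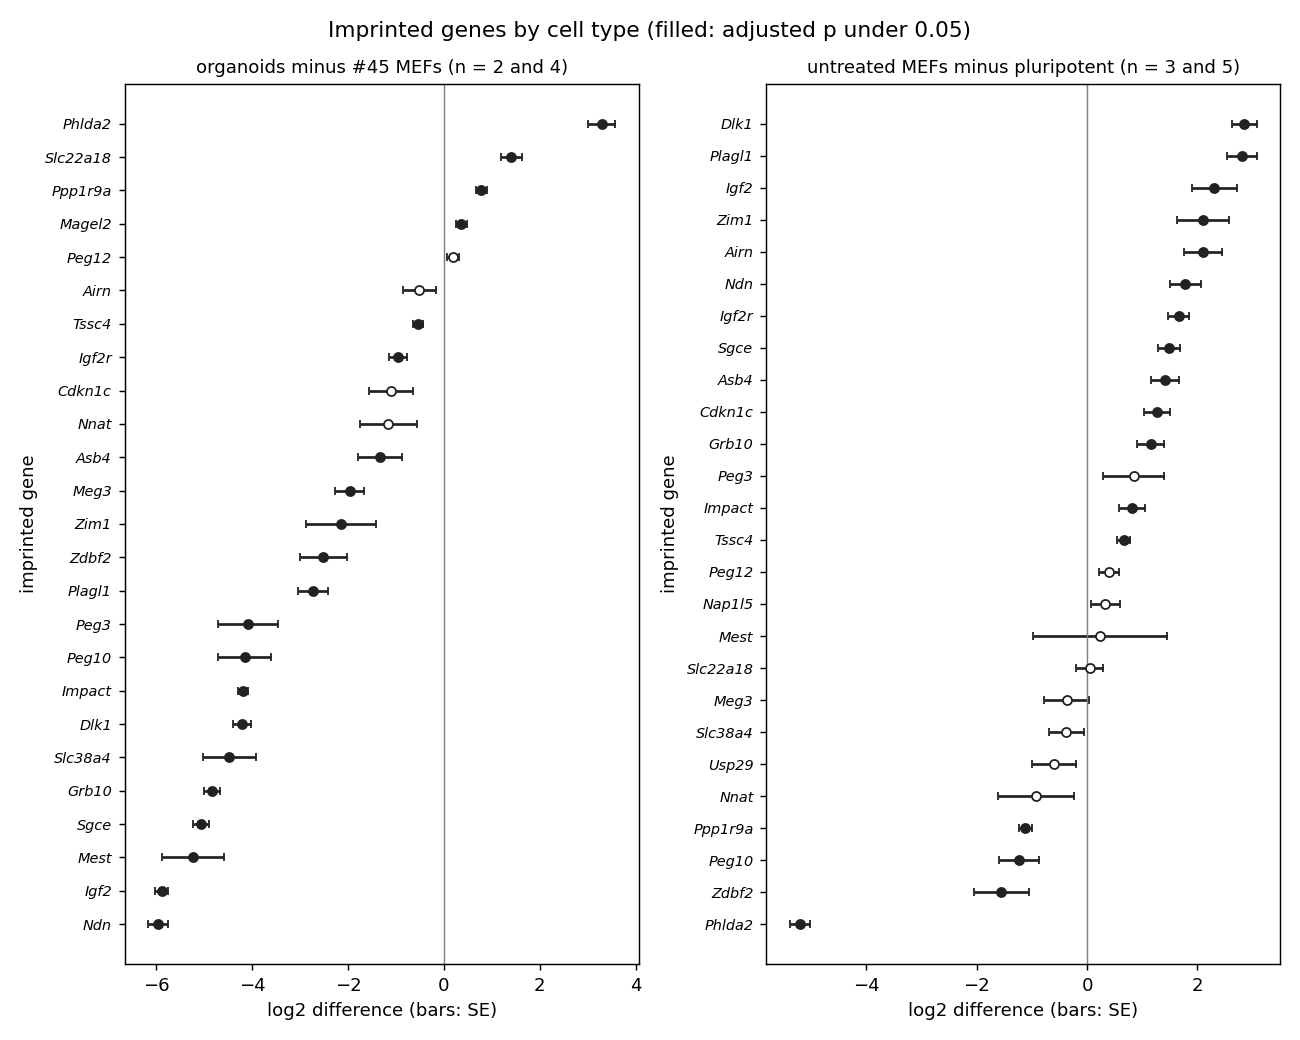
Log2 difference of each imprinted gene that entered the comparison (points, with SE as bars; filled where the adjusted p is under 0.05): 2 organoid minus 4 #45 MEF arrays on the left, 3 untreated MEF minus 5 pluripotent arrays on the right. Most points lie left of 0 in organoids, with Ndn (-5.97) and Igf2 (-5.89) farthest, and Phlda2 is at the top on the left (3.29) and at the bottom on the right (-5.21).

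The 2 pairs of #45 MEF arrays differed from each other in several imprinted genes, whatever the treatment. In the first pair Zim1 was at 7.89 and 7.75 with and without 4-OHT, and in the second at 9.37 and 10.11. Nnat was at 7.67 and 7.74 in the first pair and at 8.95 and 9.60 in the second, and Zdbf2 at 7.85 and 7.94 in the first and 9.21 and 9.20 in the second. Peg3, Peg10, Slc38a4 and Asb4 were likewise lower in both arrays of the first pair. Immune markers were higher in the first pair, as given above. The second pair had deposited intensities identical to those of derivative #9 in 9.52 to 11.7% of probe sets, and the first pair in 0%. The part of either in these differences was not tested.

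Treatment with 4-OHT gave no call among 23 imprinted genes in #45 MEFs, nor among all 11603 genes tested with limma (0%), where 519 genes (4.47%) and 0 imprinted genes had an unadjusted p under 0.05. This fit did not use the 2 pairs of MEF arrays. With the replicate number as a block the outcome differed, as given with the alternatives at the end. Mest had the largest difference, -1.31 ± 0.77, and its groups overlapped. It was at 10.29 with and 11.55 without 4-OHT in the first pair, and at 11.77 and 13.12 in the second. In organoids, with 1 array per condition, 0 of 15 imprinted genes were 2-fold apart, where 2.84% of 11397 genes were (2.1% higher and 0.746% lower). The difference between the 4-OHT effects in organoids and in MEFs was called for 0 of 25 imprinted genes and 0% of 12995 genes by limma, while 1684 genes (13%) had an unadjusted p under 0.05. Ndn was the single imprinted gene among these, with -0.85 ± 0.20 (adjusted p = 0.282). In organoids Ndn was at 5.49 with and 6.48 without 4-OHT, both under the array median, where a level cannot be told from background. With 1 organoid array per condition, the spread in this fit comes from the MEF arrays alone, and the organoid arrays are assumed to vary like them.

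Dox in S33 MEFs, again 1 array per condition and no test, was set against no dox. Of 22 imprinted genes, 7 were at least 2-fold lower and 0 higher, where 3.71% of 11390 genes were lower and 2.5% higher (6.22% in all). These were Mest (-2.11), Peg3 (-1.99), Plagl1 (-1.86), Cdkn1c (-1.48), Dlk1 (-1.30), Zdbf2 (-1.07) and Zim1 (-1.05). The median over the 22 was -0.64, against 0.04 over all genes, and 20 of the 22 were lower. Fibroblast markers averaged 12.03 with dox and 12.59 without, and their part in these differences was not tested. In S33 ESCs 2 of 20 imprinted genes were at least 2-fold lower with dox, Nnat (9.62 with dox, 11.07 without) and Igf2 (10.17 with dox, 11.35 without), where 2.18% of 11254 genes were lower and 0.986% higher (3.16% in all). Plagl1 went in opposite directions, with 10.03 with dox and 9.61 without in ESCs and 10.46 with dox and 12.32 without in MEFs, a contrast that was not tested.

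**Figure D4:**
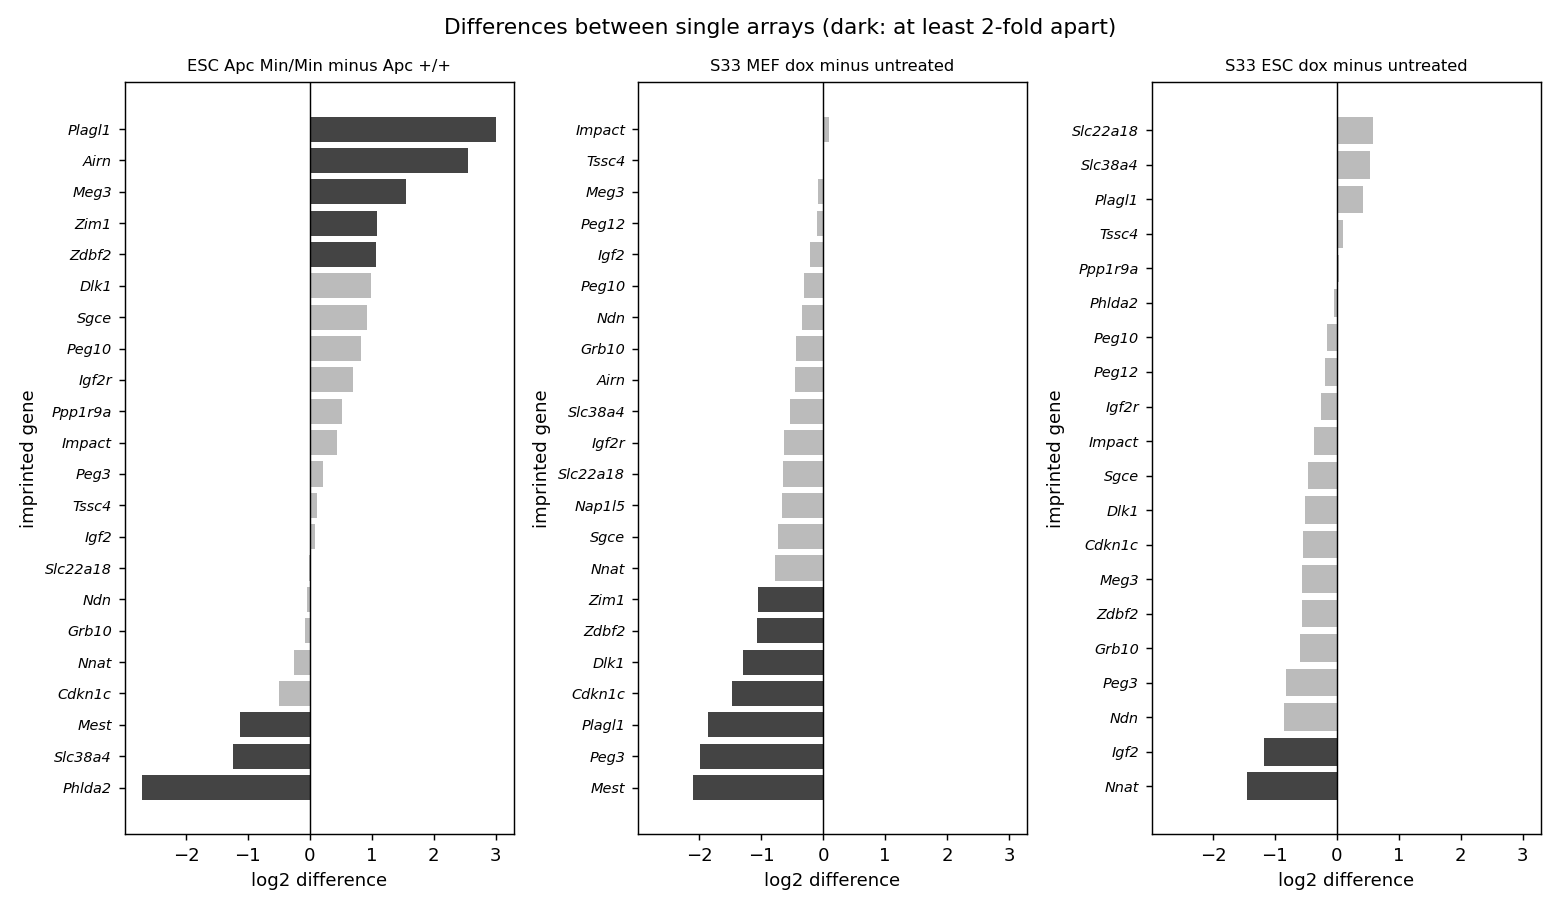
Log2 difference of each imprinted gene that entered between 2 single arrays (bars; dark where at least 2-fold apart): Apc Min/Min minus Apc +/+ ESCs, S33 MEFs with minus without dox, and S33 ESCs with minus without dox. The largest bars are Plagl1 (3.00) and Phlda2 (-2.71) in Min/Min ESCs, and 7 dark bars point down in S33 MEFs.

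The machinery that places and keeps imprints was followed in 26 genes. In MEFs against pluripotent cells 16 of 25 were lower and 1 higher, beside 30% and 32% of all genes tested. Zfp42, 1 of the 16, is also among the 9 pluripotency markers, and all 9 were called lower in MEFs by limma. The falls included Dnmt3l, the cofactor of the germline methyltransferases (-5.76 ± 0.22), the de novo methyltransferase Dnmt3b (-3.73 ± 0.26), the 5-methylcytosine oxidase Tet1 (-3.20 ± 0.23), Hells, a chromatin remodeller (-3.06 ± 0.19), Dppa3, which shields maternal methylation in the zygote (-3.04 ± 0.30), and Uhrf1, which brings the maintenance enzyme to the replication fork (-2.38 ± 0.15). Tet3 alone was higher, by 1.46 ± 0.29. Zfp57 was at 8.56 and 7.46 in the 4-OHT and untreated organoids, and fell by 2.24 ± 0.26 in organoids against #45 MEFs (adjusted p = 0.00084) and by 2.36 ± 0.24 in MEFs against pluripotent cells (adjusted p = 3.77e-05). In organoids against #45 MEFs 14 of 20 were higher and 2 lower, Zfp57 and Tet1 (-0.85 ± 0.27), beside 32.4% higher and 32.2% lower over all genes. RTCs differed from ESCs in 2 of 24, both lower, beside 3.48% lower over all genes: Dppa3 (-1.46 ± 0.22, adjusted p = 0.0119) and the methyltransferase Dnmt3a (-0.99 ± 0.23, adjusted p = 0.0491). How calls of regulators and of the further genes below hold with an array left out is not given here. Over all genes, the calls in RTCs against ESCs then ran from 234 to 1170, beside 808. In RTCs against derivatives 0 of 25 passed limma's test, beside 1.6% of all genes, and 3 had an unadjusted p under 0.05.

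A list of 45 further imprinted genes, 39 of them measured, was followed in the same way. RTCs against ESCs had 3 of 29 lower, Sfmbt2 (-1.91 ± 0.41), the phospholipid flippase gene Atp10a (-1.73 ± 0.25) and the protease inhibitor gene Tfpi2 (-1.39 ± 0.15), and 0 higher, beside 3.48% lower and 3.21% higher over all genes. RTCs against derivatives had 1 of 29 lower, again Atp10a (-1.74 ± 0.18, adjusted p = 0.00737), beside 0.762% of all genes. MEFs had 18 of 30 higher and 8 lower than pluripotent cells, beside 32% and 30% of all genes. Organoids had 14 of 30 lower and 8 higher than #45 MEFs, beside 32.2% and 32.4%. The falls in organoids were led by the matrix proteoglycan gene Dcn (-6.95 ± 0.09) and the receptor tyrosine kinase gene Axl (-5.69 ± 0.12), and all 9 fibroblast markers fell beside them, with a median difference of -4.88.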

How the data were processed

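RNA was extracted with a column kit and hybridised to single-colour arrays, 1 per sample, per the labels' protocols. The deposited values are linear intensities, 1 per probe set and array, with array medians of 142 to 317; background correction, probe summary and scaling are not given in the sources used here. Here the intensities were put on the log2 scale and quantile normalized over all 18 arrays. Of 28856 probe sets 3 had no value, 21789 carried 1 symbol, 1621 several and 5443 none in the platform annotation; 21698 matched RefSeq GRCm38.p6 by Entrez identifier, with 0 changes of symbol. Each gene was read from its brightest probe set by mean (19938 genes). A gene entered a comparison if above the array median (percentile 50) in at least 1 array compared. Tests used limma 3.58.1 (R 4.3.3), two-sided, without a trend, with p-values adjusted by Benjamini-Hochberg across every gene tested and a threshold of 0.05; ± is the SE of the fit. With 1 array per condition, genes at least 2-fold apart were counted. The number of arrays limits the precision. Line of origin, from the titles, paired RTCs and derivatives (correlation of their deviations 0.07). The genes described, the regulator and further lists, the markers and the tests were chosen with earlier results of these data known. Every listed gene is accounted for, those called in a tested comparison with their levels, and of the regulators and further genes only called ones are named. The fit was tested on simulated data. Alternatives were values as deposited, median-centred arrays, no filter or one at percentile 75, a trend, the pairing blocks and leaving out arrays.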

Additional observations from a re-analysis of the deposited data

Results flagged for a closer look

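In the 5 pluripotent arrays used against MEFs, 23 imprinted genes were searched for an array far from the others with Dixon's test, which chance alone passes in about 1 of 20 groups. It singled out Usp29 in derivative #9, at 8.17, where the nearest array was at 6.70 and the other end at 6.45, a gap of 0.851 of the range. Usp29 was above the array median in that array only and so entered the search through this value. The rate of 1 in 20 therefore does not hold for it. It also singled out Mest in untreated S33 ESCs, at 7.52, where the nearest array was at 11.23 and the other end at 12.29, a gap of 0.777 of the range.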

How the results depend on the processing

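Of 58 calls or 2-fold differences of single genes, recomputed under 648 alternatives in all, 613 kept direction and side of the threshold, 34 kept direction only and 1 reversed, Magel2 in organoids against #45 MEFs (-0.22 on the values as deposited, where the median of all genes shifted by -0.49). Alternatives in which a gene no longer entered are not among the 648 and were not counted as lost. Examples are Mest, Zdbf2 and Zim1 in S33 MEFs with the filter at percentile 75. The count for RTCs against ESCs was 1 to 2 with an array left out. Against derivatives it was 0 to 3 with an array left out, 2 on median-centred arrays (Nnat added, adjusted p = 0.0442) and 4 with the replicate block on the line of origin. The 4-OHT comparison in MEFs gave 1 with the replicate number as a block (Mest, adjusted p = 0.0297; 148 genes in all); the 2 pairs deviate together (correlation 0.83), but no label says what the numbers share. The count in S33 MEFs with dox was 4 with the filter at percentile 75, since fewer genes enter. In organoids with 4-OHT it was 2 lower on the values as deposited (Dlk1 and Grb10) and 2 higher on median-centred arrays (Airn and Igf2r), with shifts of the median of all genes of -0.22 and 0.40; the cause was not tested. Over all genes, RTCs against ESCs gave 358 calls on the values as deposited, 352 with the filter at percentile 75 and 234 (without RTC 3) to 1170 (without S33 ESCs) with an array left out, beside 808; RTCs against derivatives gave 81, 53 and 33 (without RTC 1) to 383 (without #45), beside 191. The 4-OHT difference between organoids and MEFs could not be fitted without an organoid array. One alternative was added after seeing the data: without the Apc Min/+ and Apc +/+ ESC arrays, Impact (0.54, adjusted p = 0.0587) and Peg10 (-1.20, adjusted p = 0.0591) lost their calls in MEFs. The pairing blocks changed no other call, and the number of arrays limits every comparison.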
